A study of Mus musculus with 4 samples.

Results

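Gastric RNA was compared between 2 WT and 2 *Atp4b-cre; MycOE* mice at 12 weeks of age for 9 genes of cytokine signalling, the transcription factors *Stat2*, *Stat3*, *Stat4*, *Stat5a*, *Stat5b* and *Stat6*, the inhibitors *Socs1* and *Socs3*, and the receptor chain *Il6st*. They were chosen by name from the 46095 gene symbols of the deposited count table. In *Atp4b-cre; MycOE* mice, which the sample titles call MYC-KI, Cre recombinase driven by the *Atp4b* promoter switches on a human *c-Myc* transgene in the parietal cell lineage. These mice are *Atp4b-cre; Myc fl/+*, and the study's controls are *Myc fl/fl* littermates without Cre, which the sample labels call wild type. All mice had a C57BL/6 background and their stomach RNA was sequenced, with replicates numbered 1 and 2 in each genotype. No source used here says how the animals of a genotype were related or whether RNA was pooled, so p-values measure only the spread between these samples. The WT samples came from different mice, since they differ in sex (below).

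Signal transducers and activators of transcription (STATs) rest in the cytoplasm until a cytokine receptor and its Janus kinases (JAKs) phosphorylate them. They then enter the nucleus and switch on genes, among them the suppressors of cytokine signalling (SOCS), which shut the receptor off again in a negative feedback loop. gp130, encoded by *Il6st*, is the signalling chain that interleukin-6, interleukin-11 and leukaemia inhibitory factor receptors share, and it acts mainly through STAT3. In mouse stomach, overactive gp130 and STAT3 are known to drive gastric tumours. RNA levels do not report phosphorylation, so the activity of these factors was not measured here.

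The transgenic value of each gene depends on how names and counts are paired. The names in the deposited table are sorted without regard to case, and the transgenic counts beside them fit names sorted by character code, in which capitals precede lower-case letters. Over the 61 rows around each of the 9 genes, the correlation between the genotypes (Pearson's r, over genes, of log2(count + 1) averaged within a genotype) lay between -0.200 (*Stat6*) and 0.317 (*Il6st*) as deposited. After both transgenic columns were assigned in row order to the names sorted by character code, it lay between 0.971 (*Il6st*) and 0.985 (*Socs1*). These correlations are across genes, which are not independent replicates, and the windows of the neighbouring *Stat* rows share most of their rows. In the deposited table the 6 *Stat* rows have 0 counts in both transgenic samples, and re-sorting gives those zeros to the bitter taste receptor genes *Tas2r134* to *Tas2r139*. The *Stat* and *Socs* counts lie 397 rows from their names and those of *Il6st* lie 1 row away, where the deposited row shows 84 and 62 counts that re-sorting gives to *Il7*. WT counts stay as deposited. The re-sorting was inferred from the table and stated by no source, so values below are those of the re-sorted table and every transgenic value rests on it.

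Counts summed to between 30260305 and 41463647 per sample, and 22200 to 23484 genes had at least 1 count. A gene with 3 counts would stand at 0.067 to 0.11 normalized CPM, the count relative to library size after scaling by the trimmed mean of M-values (TMM). This floor covers counting error only. Mouse *Myc* was counted 1062 and 759 times in WT and 735 and 1091 times in transgenic mice, and since the transgene is human this does not check the genotype. *Xist* had 17846 counts in WT replicate 2 and 85 to 201 in the other samples, so WT replicate 2 differs in sex from the other samples. The stomach markers were present, and all 6 genes of the parietal list were lower in transgenic mice, with summed levels of 12230 to 12300 normalized CPM in WT and 301 to 319 in transgenic mice. The 5 pan-leukocyte markers summed to 41.3 to 48.3 normalized CPM in WT and 26.5 to 38.5 in transgenic mice, with 1 of 5 (*Coro1a*) called lower. In such bulk samples, fewer cells of a type and less RNA per cell cannot be told apart.

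All 9 genes passed the filter on low counts. Of them *Il6st* was lower in *Atp4b-cre; MycOE* mice and the other 8 did not pass the thresholds, an adjusted p under 0.05 (edgeR, quasi-likelihood) together with a log2 fold change beyond 0.585 in either direction. This is 11.1% of the genes, and 10.7% of all 17643 genes tested passed, so the share is near the background. The median log2 fold change was 0.060 over the 9 genes and 0.012 over all genes, and the median absolute log2 fold change was 0.19 against 0.40. In 4 of the 9 genes the genotypes did not overlap, against 64.9% of all genes. *Stat3*, *Stat5a* and *Socs3* lay higher in both transgenic samples, as 33.3% of all genes did, and *Il6st* lower, as did 31.5%. Genes called lower made up 5.08% of all genes tested.

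**Figure D1:**
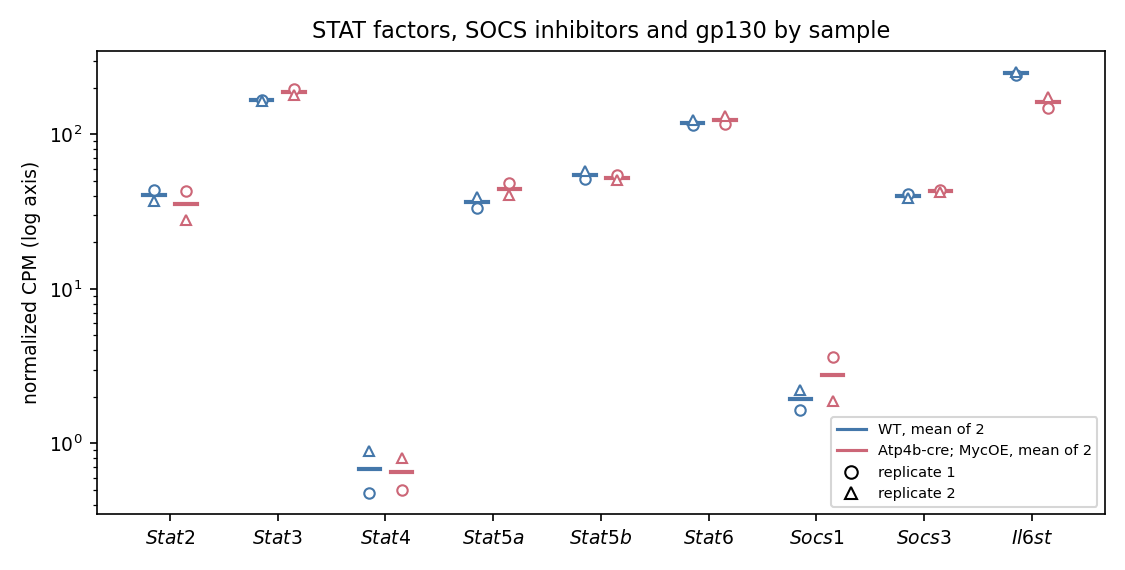
Normalized CPM (log axis) of the 9 genes in each sample, with WT in blue, *Atp4b-cre; MycOE* in red, circles for replicate 1, triangles for replicate 2 and bars for the mean of 2. *Il6st* stood at 243 and 253.5 normalized CPM in WT and at 147 and 174 in transgenic mice, while *Stat4* stayed under 1 in every sample.

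*Il6st* encodes gp130, the shared receptor chain. Its counts were 8159 and 7072 for WT and 4990 and 7780 for transgenic mice. These are 243 and 253.5 normalized CPM in WT and 147 and 174 in transgenic mice, so the transgenic samples lay below both WT samples and differed more from each other than the WT samples did. The mean was 248 ± 7.34 normalized CPM (SD, n = 2) in WT and 161 ± 19.1 (SD, n = 2) in transgenic mice. *Il6st* therefore fell by 0.63 on the log2 scale (standard error, SE, 0.11; 95% interval -0.93 to -0.32; edgeR adjusted p = 0.0407), which is 35.3% less. Relative to the median of all genes *Il6st* stood at -0.64 on the log2 scale both with TMM and with library size alone. With library size alone, however, the fold change itself was -0.41 (adjusted p = 0.0663) and the call was lost. The call was kept with DESeq2's size factors, without a filter on low counts and with at least 10 counts in every sample. With DESeq2 the log2 fold change was -0.64 (DESeq2 adjusted p = 0.000157), which also passed. Without transgenic replicate 1 it was -0.51 (adjusted p = 0.0569), and without WT replicate 1 or 2 it was -0.66 or -0.60 (adjusted p = 0.222 and 0.257), where 0 of all genes were called. The gene lies on chromosome 13 from 112464070 to 112510086 on the plus strand (mm10, GENCODE release M21), and its 20 exon blocks span 11099 bases.

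Its level moved with those of markers of several cell types, epithelial and other. Besides the parietal list, all 4 surface mucous markers fell. Their sums were 44890 to 53560 normalized CPM in WT and 10960 to 17190 in transgenic mice. Of 5 genes listed for chief cells 3 fell, with sums of 81480 to 85160 and 3494 to 6901. Most of the transgenic sum of that list was *Gkn3*, at 5803 and 2035 normalized CPM, which did not pass (log2 fold change 0.73, adjusted p = 0.394). *Gkn3* does not mark chief cells specifically, so that sum is not one of chief cells alone. *Pgc* stood at 81000 and 76700 normalized CPM in WT and 1043 and 1426 in transgenic mice, and *Pga5* (log2 fold change 0.016) did not pass. Mast cell markers moved the other way, with 5 of 7 called higher and sums of 70.8 to 93.8 and 232 to 240.5. Mucous neck markers (0 of 4 called, sums of 10150 to 12510 and 9015 to 20250) and squamous markers (0 of 9, sums of 2179 to 3592 and 1665 to 6288) overlapped between the genotypes in their sums. All 5 endothelial markers fell, with summed levels of 302.5 to 307 normalized CPM in WT and 110 to 126 in transgenic mice. Of 7 macrophage and monocyte markers 4 fell and *Cd14* rose, with sums of 246 to 256 and 109 to 118.5, and of 5 adipocyte markers 2 fell, with sums of 153 to 412 and 15.1 to 31.0. Smooth muscle markers had 0 of 6 called, with sums of 4827 to 7640 and 2479 to 5270. No gene of these lists was at 0 throughout a genotype. Of 11 genes listed for pancreatic acinar cells 5 were tested and 4 fell, with sums of 8939 to 10200 and 146 to 168. Nearly all of the WT sum was *Pla2g1b*, at 9805 and 8607 normalized CPM. *Cpa1*, *Prss2* and *Amy2a5* had 0 counts in every sample, so the sum does not show that such cells were present. *Cela2a* was counted 20 and 18 times in WT and 0 and 0 times in transgenic mice. *Pnlip*, which was not tested, was counted 1 and 0 times against 18 and 7 times. The part of any of these cells in the level of *Il6st* was not tested.

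*Stat3* encodes the factor that gp130 activates. Its counts were 5615 and 4592 for WT and 6680 and 8066 for transgenic mice, or 167 and 165 against 197 and 181 normalized CPM. Both transgenic samples lay above both WT samples, by less than the threshold. The difference was 0.19 on the log2 scale (SE 0.086, 95% interval -0.044 to 0.42, adjusted p = 0.212). With library size alone it was 0.41 (adjusted p = 0.0405), still under the fold threshold, and relative to the median of all genes it was 0.17 under both scalings.

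*Stat5a* and *Stat5b* encode closely related factors that act downstream of growth hormone and prolactin receptors. *Stat5a* stood at 33.6 and 39.5 normalized CPM in WT and 48.5 and 40.3 in transgenic mice. The genotypes were separated only by the narrow gap between WT replicate 2 and transgenic replicate 2. On the log2 scale *Stat5a* differed by 0.28 (SE 0.15, adjusted p = 0.252). *Stat5b* stood at 51.3 and 57.8 normalized CPM in WT and 54.5 and 50.4 in transgenic mice, and the genotypes overlapped. Its log2 fold change was -0.057 (SE 0.10, adjusted p = 0.734), and it turned to 0.17 with library size alone. Of the 7407 distinct stretches of 50 bases in the annotated *Stat5a* transcripts, 608 (8.21%) also occur in those of *Stat5b*, and these are 11.0% of the 5535 of *Stat5b*. How reads from such stretches were assigned is not given in the sources used here, so the split between the pair is uncertain to that extent.

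*Stat3*, *Stat5a* and *Stat5b* lie side by side on chromosome 11. *Stat5b* runs from 100780731 to 100850724 on the minus strand, *Stat5a* from 100859351 to 100885169 on the plus strand and *Stat3* from 100885098 to 100939540 on the minus strand. The ends of *Stat5a* and *Stat3* share 72 exonic bases on opposite strands. On chromosome 10 lie *Stat6* (127642986 to 127660957) and *Stat2* (128270559 to 128292849), both on the plus strand, and *Stat4* is on chromosome 1 (51987148 to 52107189, plus strand). *Stat6* shares 40 such bases with *Nab2*, and *Stat4* shares 1033 exonic bases on the same strand with *Gm28177*, which has no row in the table. Whether the counting used the strand is not stated, and without it reads in the bases shared on opposite strands cannot be told apart.

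*Stat2* acts with *Irf9* in the complex that interferon alpha and beta activate. Counts of *Stat2* were 1465 and 1033 for WT and 1450 and 1248 for transgenic mice, or 43.7 and 37.0 against 42.8 and 27.9 normalized CPM. Transgenic replicate 2 was the lowest sample, below both WT samples, and transgenic replicate 1 lay between them. The fitted difference of -0.19 on the log2 scale had a wide 95% interval, -0.83 to 0.45 (SE 0.24, adjusted p = 0.619). It turned to 0.031 with library size alone and to 0.084 without transgenic replicate 2. *Irf9* had the same order of replicates. Replicate 1 exceeded replicate 2 in both genotypes, by 1.18 and 1.53 times for *Stat2* and by 1.38 and 1.49 times for *Irf9* in WT and transgenic mice. *Irf9* did not pass the test (log2 fold change 0.21, adjusted p = 0.632).

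*Stat6* carries the signal of interleukin-4 and interleukin-13. It stood at 115 and 123 normalized CPM in WT and 117 and 131.5 in transgenic mice, and the genotypes overlapped. It differed by 0.060 on the log2 scale (SE 0.0998, 95% interval -0.21 to 0.33, adjusted p = 0.714). *Stat4*, which responds to interleukin-12 in T cells and natural killer cells, had few counts, with 16 and 25 counts for WT and 17 and 36 for transgenic mice. In each genotype replicate 2 had the higher level, 0.90 and 0.81 normalized CPM against 0.48 and 0.50 in replicate 1. The log2 fold change of -0.057 had an SE of 0.55 and a 95% interval of -1.54 to 1.43 (adjusted p = 0.954), so a log2 change of 1 in either direction lay inside what these counts allow. The 13 T and natural killer cell markers summed to 10.3 to 13.5 normalized CPM in WT and 6.56 to 20.7 in transgenic mice. Of the 8 tested 0 were called. *Ifng* had 0 counts in every sample, and *Cd2* had 1 count, in transgenic replicate 2.

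**Figure D2:**
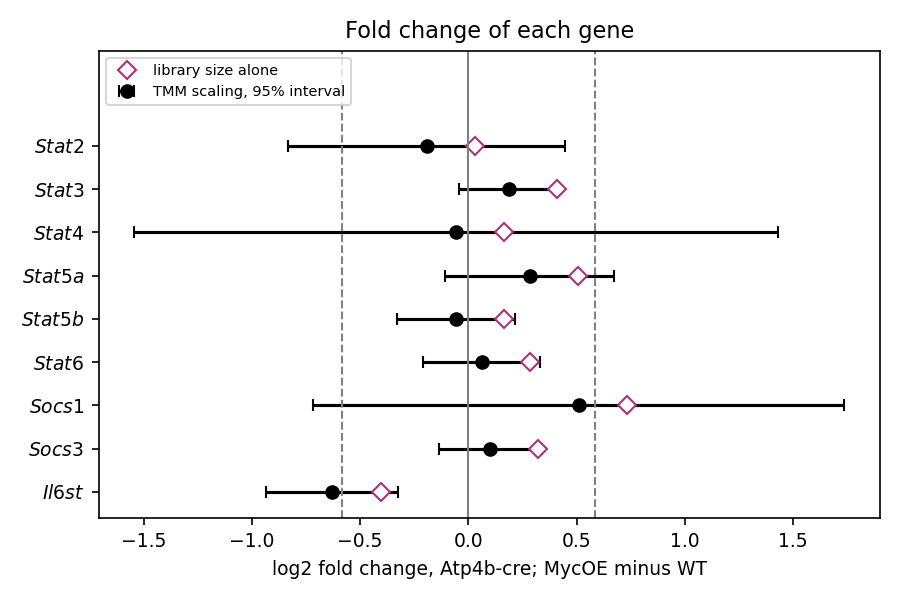
Log2 fold change of the 9 genes in *Atp4b-cre; MycOE* against WT mice. Black points show TMM scaling with 95% intervals, open diamonds show library size alone and dashed lines mark 0.585 in either direction. The interval of *Il6st* lay below 0, and those of *Stat4* and *Socs1* were the widest.

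*Socs3* is the feedback inhibitor that binds gp130. Its counts were 1388 and 1080 for WT and 1474 and 1893 for transgenic mice, or 41.4 and 38.7 against 43.5 and 42.4 normalized CPM. The transgenic samples lay above the WT samples by a small margin. *Socs3* is on chromosome 11 (117966079 to 117970047) and *Socs1* on chromosome 16 (10782240 to 10785536), both on the minus strand. The difference for *Socs3* came to 0.10 on the log2 scale (SE 0.089, 95% interval -0.14 to 0.34, adjusted p = 0.483). *Socs1*, which binds JAKs directly and restrains interferon signals, was counted 55 and 62 times in WT and 123 and 84 times in transgenic mice. Only transgenic replicate 1, at 3.63 normalized CPM, stood above the others, which lay at 1.64, 2.22 and 1.88. Its log2 fold change of 0.51 had an SE of 0.46 and a 95% interval of -0.72 to 1.74 (adjusted p = 0.488), and it was -0.035 without transgenic replicate 1.

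With TMM normalization the 95% intervals of *Stat3*, *Stat5b*, *Stat6* and *Socs3* lay inside 0.585 in either direction, and those of *Stat2*, *Stat4*, *Stat5a* and *Socs1* reached beyond it. Library size alone moved the median of all genes from 0.012 to 0.23, and with it the sign of *Stat2*, *Stat4* and *Stat5b*. As deposited, without re-sorting, all 9 genes were called, as were 84.1% of all genes tested in that table. The *Stat* genes were at least 8.46-fold (*Stat4*) to 2048-fold (*Stat3*) lower there against a floor of 3 counts per library. *Socs3* (log2 fold change -2.80) and *Il6st* (-6.96) were lower in that table and *Socs1* (5.34) higher.

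**Figure D3:**
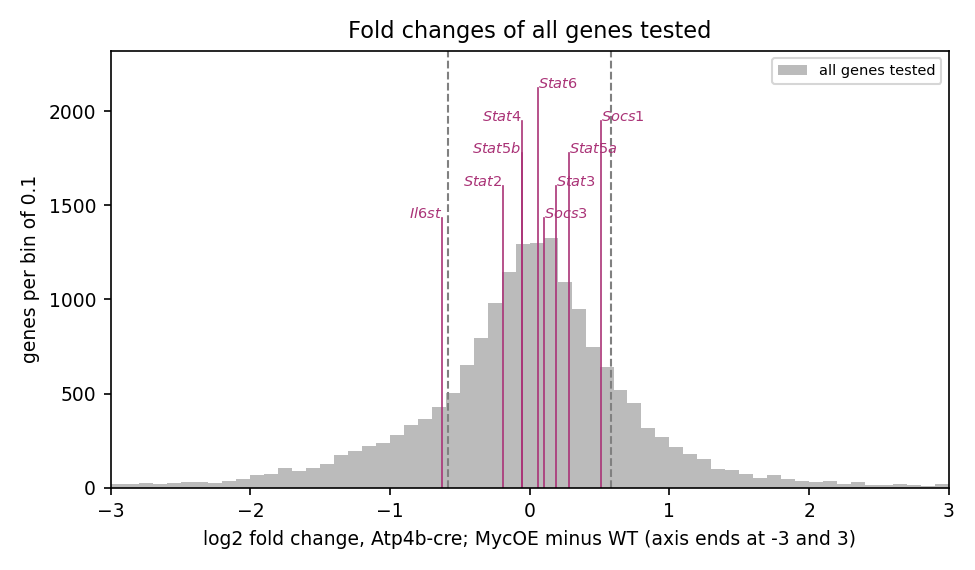
Number of genes per bin of 0.1 log2 fold change over all 17643 genes tested, with the 9 genes marked and dashed lines at 0.585 in either direction. The axis ends at log2 fold changes of -3 and 3, beyond which genes are not drawn. *Il6st* at -0.63 was the only marked gene outside the dashed lines.

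Levels of different genes were compared per kilobase of exon. In WT the order was *Stat6* (27.0 normalized CPM per kilobase), *Il6st* (22.4), *Stat3* (17.4), *Socs3* (13.9), *Stat5b* (9.84), *Stat2* (6.81), *Stat5a* (5.12), *Socs1* (0.66) and *Stat4* (0.18), and no neighbours in it overlapped between samples. In transgenic mice *Stat6* (28.2) and *Stat3* (19.8) led. *Il6st* (14.5) moved to the fourth place and overlapped with *Socs3* (14.8), and *Stat5a* (6.23) overlapped with *Stat2* (5.96). *Stat6* was thus the most abundant of the 9 transcripts per length in both genotypes, and *Socs1* (0.95) and *Stat4* (0.17) were the least abundant. The exon length covers all annotated transcripts, so levels of genes with long rare exons are understated.

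Other genes of the pathway were read from lists by role. Of 79 listed genes 72 passed the filter on low counts and 9 were called, 4 higher and 5 lower in transgenic mice. This is 12.5%, against 10.7% of all genes (5.65% higher and 5.08% lower). The median log2 fold change over the 72 genes was -0.11. Called genes are described for each list, or the 2 of highest count where none was called, and further genes were named after their values were seen.

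Of 6 partner receptors of gp130, 2 were lower and 0 higher, with a median of -0.32. *Il11ra1*, the receptor chain that binds interleukin-11, stood at 81.6 and 73.3 normalized CPM in WT and 29.2 and 28.2 in transgenic mice. The samples were close within each genotype and far apart between them, and it fell by 1.43 on the log2 scale (SE 0.094, adjusted p = 0.0140). The mouse genome holds a near-identical copy, *Il11ra2*, and how reads that fit both were assigned is not given in the sources used here. *Lifr*, the receptor chain for leukaemia inhibitory factor, stood at 91.9 and 102 against 47.6 and 47.4, or -1.03 on the log2 scale (SE 0.087, adjusted p = 0.0180). *Osmr* (0.13), *Il6ra* (-0.14), *Cntfr* (-0.37) and *Il27ra* (-0.27) did not pass. In *Il6ra*, which binds interleukin-6, the transgenic samples at 8.49 and 16.6 normalized CPM lay on either side of WT. The parietal, surface mucous, chief, endothelial, macrophage and adipocyte sums given above or beside *Il6st* moved with *Il11ra1* and *Lifr* too, and their part in these levels was not tested.

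Among the ligands of gp130, *Il11* rose. It was counted 12 and 6 times in WT and 134 and 113 times in transgenic mice, or 0.36 and 0.22 against 3.95 and 2.53 normalized CPM. Interleukin-11 is known as a gastric tumour-promoting cytokine of this family. It rose by 3.47 on the log2 scale (SE 0.49, adjusted p = 0.0295). Leaving out single samples gave 3.12 to 3.89, with adjusted p-values of 0.0279 to 0.238, and the call was lost without either WT sample or transgenic replicate 1 (0.0545). Of the 10 ligands 5 did not pass the filter. *Il6* itself was counted 0 and 2 times in WT and 1 and 10 times in transgenic mice, so it was above the floor of 3 counts only in transgenic replicate 2 and was not tested. *Lif* (log2 fold change 0.24, adjusted p = 0.627) and *Ctf1* (-1.05, adjusted p = 0.0666), which encodes cardiotrophin-1, did not pass.

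**Figure D4:**
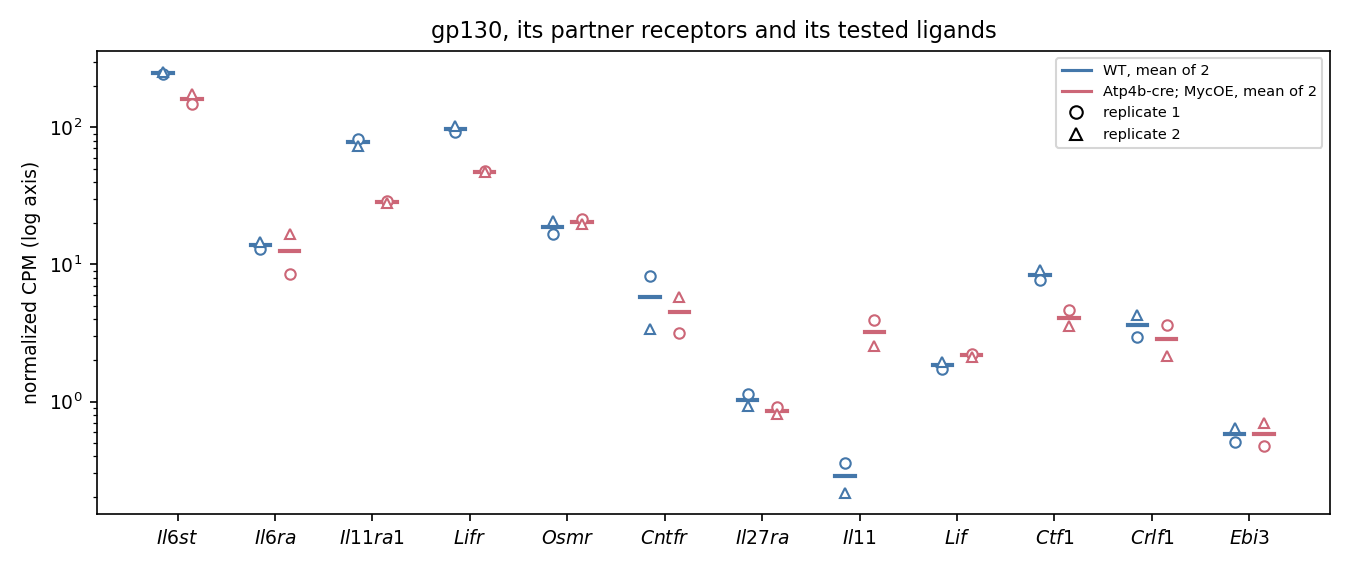
Normalized CPM (log axis) of *Il6st*, the 6 partner receptors of gp130 and the 5 ligands that were tested, with WT in blue, *Atp4b-cre; MycOE* in red, circles for replicate 1, triangles for replicate 2 and bars for the mean of 2. *Il11ra1* and *Lifr* were lower and *Il11* higher in both transgenic samples.

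The JAKs that act beside these receptors did not pass the test, with 0 of 4 called and log2 fold changes of -0.21 to 0.32. *Jak1* stood at 172 and 178 normalized CPM in WT and 157 and 157 in transgenic mice (log2 fold change -0.16, adjusted p = 0.222). *Jak2* stood at 83.7 and 91.1 against 76.7 and 74.8 (-0.21, adjusted p = 0.168). Both turned positive with library size alone, to 0.063 and 0.016.

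Among the 6 other SOCS genes only *Cish* passed. *Cish* encodes CIS, the feedback inhibitor that STAT5 switches on, and it stood at 39.2 and 42.7 normalized CPM in WT and 19.4 and 22.7 in transgenic mice. All transgenic values lay well under those of WT, and *Cish* fell by 0.96 on the log2 scale (SE 0.13, adjusted p = 0.0279). *Socs2*, another STAT5 target that restrains growth hormone signals, overlapped between the genotypes (log2 fold change -0.16, adjusted p = 0.557). *Ghr*, the growth hormone receptor, fell from 78.5 and 99.3 to 42.8 and 47.6 normalized CPM (log2 fold change -0.98, SE 0.15, adjusted p = 0.0314), a call that was lost without transgenic replicate 1 (-0.90, adjusted p = 0.0541). It was the only one called among 21 other STAT-coupled receptors tested. *Ifngr1* had an adjusted p of 0.0473 with a log2 fold change of -0.47, under the fold threshold. The parietal, surface mucous, chief, endothelial, macrophage and adipocyte sums given above fell as *Cish* and *Ghr* did. The part of these cells in the levels of *Cish* and *Ghr* was not tested.

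Promoters of *Socs3*, *Cish* and *Il6st* are shown because feedback inhibitors are themselves STAT targets and because *Cish* and *Il6st* fell. Each runs from 250 bases before to 50 after the RefSeq start (GRCm38.p6), 5′ to 3′ on the strand of the gene. Capitals mark matches to TTCNNNGAA, the core that STAT dimers bind, which reads the same on both strands. *Socs3* is chr11:117969317-117969616 on the minus strand, *Cish* is chr9:107296409-107296708 on the plus strand and *Il6st* is chr13:112463820-112464119 on the plus strand.
Socs3: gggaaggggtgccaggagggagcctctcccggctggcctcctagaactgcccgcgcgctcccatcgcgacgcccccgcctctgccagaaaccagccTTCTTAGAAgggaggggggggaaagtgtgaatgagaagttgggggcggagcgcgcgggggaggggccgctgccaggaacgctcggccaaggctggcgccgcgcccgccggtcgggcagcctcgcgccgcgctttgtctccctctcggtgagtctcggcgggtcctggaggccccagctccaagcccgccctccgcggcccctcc
Cish: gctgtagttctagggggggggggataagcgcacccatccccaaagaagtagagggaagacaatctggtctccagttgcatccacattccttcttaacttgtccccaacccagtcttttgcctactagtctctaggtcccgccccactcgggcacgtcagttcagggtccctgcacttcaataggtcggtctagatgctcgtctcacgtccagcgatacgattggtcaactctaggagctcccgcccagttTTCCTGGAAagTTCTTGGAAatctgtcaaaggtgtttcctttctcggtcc
Il6st: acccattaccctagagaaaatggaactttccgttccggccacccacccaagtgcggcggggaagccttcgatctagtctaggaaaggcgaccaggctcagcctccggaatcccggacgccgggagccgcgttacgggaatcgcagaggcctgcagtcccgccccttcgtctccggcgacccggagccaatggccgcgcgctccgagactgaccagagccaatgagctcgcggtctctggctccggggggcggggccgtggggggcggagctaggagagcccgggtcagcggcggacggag

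The *Socs3* window held 1 match, at position -154 from the start, and that of *Cish* held 2, at positions 1 and 12. *Il6st* had no match in these letters. Among the 9 genes only *Socs3* had a match in this window, and among 54 other pathway genes with a window 9 did. Over all genes 9.55% of 27025 had one, and 8.30% of the 32851 windows. CACGTG, the E-box that MYC and MAX bind, also reads the same on both strands, and a match to it cannot share a base with a match to TTCNNNGAA. It was in no window of the 9 genes and in those of 3 of the 54 others, against 8.09% of all genes. These matches describe the sequence and do not show binding.

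Among the other negative regulators *Ptpn2* rose, which encodes a phosphatase that removes phosphate from JAK1, JAK3 and STATs. It stood at 22.4 and 22.2 normalized CPM in WT and 42.2 and 33.4 in transgenic mice. The log2 fold change was 0.76 (SE 0.15, adjusted p = 0.0476). The call was lost without transgenic replicate 1 (0.58, adjusted p = 0.0701) or either WT sample, and with the size factors of DESeq2 (0.75, adjusted p = 0.0503). The other 7 genes of the list, which encode PIAS proteins and SH2-domain or related phosphatases, had log2 fold changes of -0.27 to 0.18 and did not pass. *Ptpn11* (0.011) and *Ptpn6* (-0.041) were the closest to 0 among the phosphatases.

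Lists of genes known to respond to STAT3, STAT5 or STAT6, though not to these alone, included called genes in both directions. Of 12 STAT3-responsive genes, *Ccnd1*, encoding cyclin D1, rose from 130 and 143 to 229 and 230 normalized CPM (log2 fold change 0.75, SE 0.088, adjusted p = 0.0228), and the others did not pass. The antimicrobial lectin gene *Reg3b* stood at 6.68 and 3.69 normalized CPM in WT and at 205 and 26.9 in transgenic mice. The transgenic samples lay far above WT and far apart from each other, and the log2 fold change of 4.48 did not pass (adjusted p = 0.0726). Neither did *Hp*, encoding haptoglobin (-2.79, adjusted p = 0.0802), nor *Cebpd*, encoding a C/EBP transcription factor (-0.75, adjusted p = 0.0611), which lay lower in both transgenic samples. Of 5 tested STAT5-responsive genes only *Cish* was called, and *Igf1* (-1.21, adjusted p = 0.0806) did not pass.

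Of 7 tested STAT6-responsive genes, which mark alternatively activated macrophages among other cells, 1 rose and 1 fell. Their median log2 fold change was -0.85. *Chil3*, a chitinase-like protein gene, was counted 1 and 6 times in WT and 288 and 263 times in transgenic mice (log2 fold change 5.90, SE 0.80, adjusted p = 0.0279). Without WT replicate 1 or 2 its log2 fold change was 5.04 or 7.76, and neither value passed (adjusted p = 0.196 and 0.232). *Mrc1*, the mannose receptor of tissue macrophages, fell from 40.8 and 43.5 to 7.46 and 9.56 normalized CPM (log2 fold change -2.31, SE 0.17, adjusted p = 0.0155). Of the 7 macrophage and monocyte markers, *Adgre1* and *Csf1r* were among the 4 that fell (-2.27 and -1.56), *Cd14* rose (1.95) and *Cd68* did not pass (-0.16, adjusted p = 0.773). The part of macrophage number in these values was not tested. *Il4ra*, the receptor chain that recruits STAT6, stood at 43.5 and 50.3 against 83.4 and 59.0 normalized CPM and did not pass (0.60, adjusted p = 0.116). *Ccl11* (-1.25, adjusted p = 0.0732) and *Ccl24* (-1.80, adjusted p = 0.0794) lay lower in both transgenic samples, as 31.5% of all genes did, and did not pass. *Arg1* and *Retnla* overlapped between the genotypes.

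**Figure D5:**
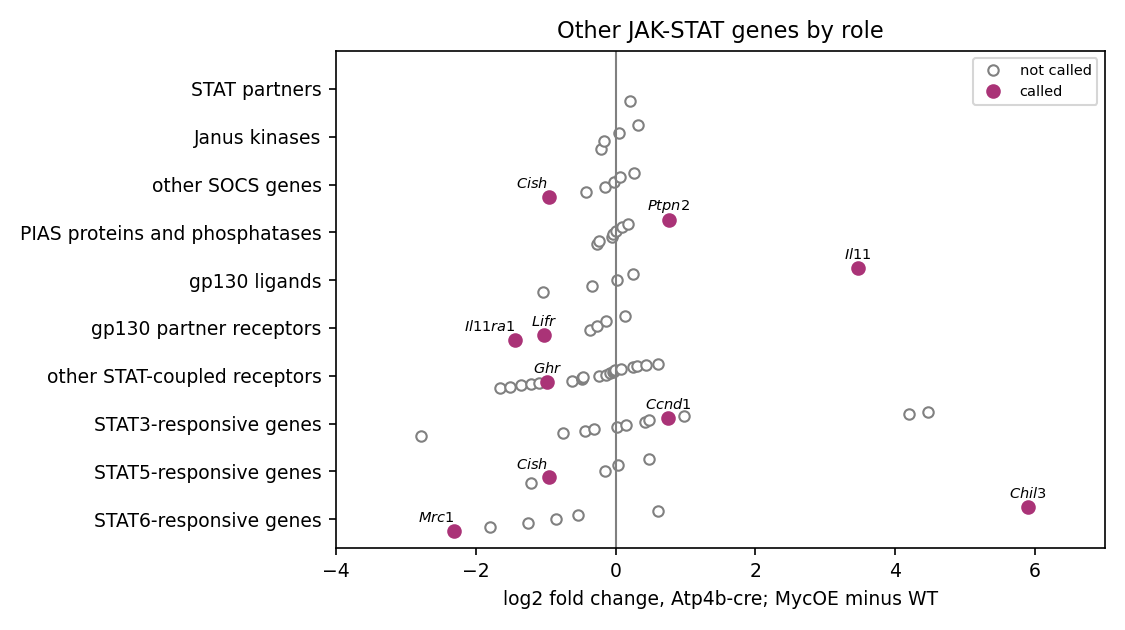
Log2 fold change of each tested pathway gene in *Atp4b-cre; MycOE* against WT mice, by list, with called genes filled and named, and *Cish* drawn in both lists that hold it. *Il11* and *Chil3* lay farthest to the right among called genes, and *Il11ra1* and *Mrc1* farthest to the left.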

How the data were processed

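RNA sequencing counts of 2 WT and 2 MYC-KI stomachs at 12 weeks of age were analysed. The series' design text speaks of triplicates, while the sample labels and the count table hold 2 samples per genotype. The authors deposited 1 table of raw counts per gene symbol, 1 column per sample, not normalized. The submitters' processing notes name HISAT2 and mm10. The counting tool, annotation and strand setting are not given in the sources used here. Columns were matched to samples by title, and 0 were left over. Both MYC-KI columns were assigned, in row order, to the names sorted by character code.

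All genes were fitted with edgeR 4.0.16 in R 4.3.3 (TMM, filterByExpr, glmQLFit, glmQLFTest, Benjamini-Hochberg adjustment over all genes tested, no covariates), and 17643 passed the filter. The thresholds, 0.05 for adjusted p and 0.585 for the size of the log2 fold change, are those the study used with DESeq2. SEs were taken from the log2 fold change and the F statistic, and 95% intervals from these and the t distribution. Values are TMM-normalized CPM. Chi-square per degree of freedom between replicates was 28.9 (WT) and 97.9 (MYC-KI), above counting noise, so both were kept as samples. Depth was 30260305 to 41463647 counts per sample.

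All 9 genes were named. Of each other list the called genes were named, up to 6 by fold change, or otherwise the 2 with the highest counts. From the lists 1 gene was left out and is not reported here. The genes and lists were chosen with earlier results of these data known. Alternatives were DESeq2 1.42.0, its size factors, library size alone, no filter, at least 10 counts in every sample, a replicate block, the deposited row order, other fold thresholds and omission of single samples. Scripts were tested on simulated data. Protein identity of *Stat5a* and *Stat5b* had been planned, and shared stretches of GENCODE transcripts were used instead. Exon lengths and coordinates came from GENCODE M21 (GRCm38), and promoters from RefSeq (GRCm38.p6).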

Additional observations from a re-analysis of the deposited data

How the results depend on the processing

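In place of the 1892 genes called, DESeq2 called 3234, library size alone 3011, the deposited row order 18580 and a log2 fold change threshold of 1 left 1113. Of the 9 genes, 0 were called with library size alone or with the threshold of 1, and all 9 in the deposited order. Of the other pathway genes 9 were called at first, 19 with DESeq2, 17 without a filter on low counts, 65 in the deposited order and 5 with the threshold of 1. The share of called genes that were higher was 75.5% with library size alone and 46.4% with DESeq2. DESeq2's size factors ended the call of *Ptpn2* (adjusted p = 0.0503). *Il11* and *Chil3* were not tested with at least 10 counts in every sample. Causes were not tested. The deposited order pairs the MYC-KI counts with other names than the re-sorted order does.

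With library size alone the log2 fold change turned to 0.031 (*Stat2*), 0.17 (*Stat4*), 0.17 (*Stat5b*), 0.063 (*Jak1*) and 0.016 (*Jak2*). In the deposited order it turned to -11.0 (*Stat3*), -8.82 (*Stat5a*), -10.5 (*Stat6*), -2.80 (*Socs3*), -8.42 (*Irf9*), -8.10 (*Ptpn2*) and -2.06 (*Ccnd1*), where rows at the floor stand at 3 counts per library.

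Omission of single samples gave 0 to 2470 genes called, 0 to 1 of the 9 genes and 0 to 17 of the other pathway genes. The lone sample left in a genotype is assumed to vary like the other genotype. Without WT replicate 1 or 2, edgeR called 0 genes, with 3554 and 3410 at an unadjusted p under 0.05. Without MYC-KI replicate 1 or 2 it called 1613 and 2470. The log2 fold change changed sign within -0.53 to 0.084 (*Stat2*), -0.45 to 0.46 (*Stat4*), -0.14 to 0.028 (*Stat5b*), -0.027 to 0.15 (*Stat6*), -0.035 to 0.91 (*Socs1*) and -0.11 to 0.47 (*Irf9*).

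With the replicate number as a block, 114 genes were called, 0 of the 9 genes and 2 of the other pathway genes, with 5178, 1 and 22 at an unadjusted p under 0.05. *Il6st* stood at -0.63 (adjusted p = 0.0730). The labels give the samples only a shared number, and the difference between replicates 1 and 2 correlated at r = 0.067 between the genotypes across 17643 genes, so the samples were not paired. Among the 9 genes, *Stat4* and *Socs1*, those with the fewest counts, had the widest intervals, and *Il6* did not pass the filter on low counts.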
